A study of Mus musculus with 12 samples.

Results

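Thioredoxins, thioredoxin reductases, peroxiredoxins, sulfiredoxin and catalase were followed in mouse breast cancer cells after knockdown of Nrf2. The 10 genes were picked by symbol (Txn1, Txn2, Txnrd1, Txnrd2, Srxn1, Prdx1, Prdx3, Prdx5, Prdx6 and Cat) from 24454 Entrez gene IDs, and each was found as a single entry. All 10 were among the 12502 genes that were tested.

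Peroxiredoxins remove hydrogen peroxide and organic peroxides with a reactive cysteine that becomes oxidized. Thioredoxin returns most of them to the reduced state, and thioredoxin reductase recharges thioredoxin with electrons from NADPH. Sulfiredoxin repairs peroxiredoxins whose cysteine was oxidized too far, and catalase breaks down hydrogen peroxide in peroxisomes without thioredoxin. Cytosolic and mitochondrial versions of this chain are encoded by separate genes. NRF2, the product of Nfe2l2, is a transcription factor known to drive several of these genes through antioxidant response elements.

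The cell lines MT∆Ecad, PyMT-1099 LT and Py2T LT each gave a group that received an siRNA against Nrf2 (siNrf2) and a group that received a non-targeting siRNA (siCtl). Both siRNAs came from Dharmacon and acted for 48 h. PyMT-1099 LT and Py2T LT carry the strain label MMTV-PyMT and MT∆Ecad carries MMTV-Neu, transgenes in which the mouse mammary tumour virus promoter drives an oncogene in the mammary gland. All 3 are described as mesenchymal cells from mammary tumours, and MT∆Ecad is the E-cadherin-deleted line. Each is a single line, each of the 6 groups holds 2 replicates that the series text calls biological, and p-values therefore measure the spread between these 12 libraries.

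The libraries held 27088970 to 37070635 reads. Nfe2l2 itself had 25.7 and 33.3 CPM (read counts scaled to a library total of 1000000) in the siNrf2 libraries of PyMT-1099 LT, against 113 and 113 CPM in the siCtl libraries. It had 21.9 and 24.5 CPM in siNrf2 against 89.7 and 83.6 CPM in siCtl cells of Py2T LT, and 50.8 and 54.0 against 208 and 209 CPM in MT∆Ecad. Its log2 fold change was −1.97 for MT∆Ecad, −1.91 for PyMT-1099 LT and −1.86 for Py2T LT, and the difference between lines did not pass limma's F test (adjusted p 0.997). Vim and Fn1 were expressed in every library, at 1489 to 5534 and 5248 to 10206 CPM, whereas Twist1 was at 0 in PyMT-1099 LT. Cdh2 averaged 14.0 CPM in siCtl cells of Py2T LT, against 206 CPM in those of PyMT-1099 LT and 215 CPM in those of MT∆Ecad. The epithelial markers Cldn4, Epcam and Esrp1 averaged 157, 17.7 and 11.1 CPM in siCtl cells of Py2T LT. Krt8 and Krt18, also epithelial markers, averaged 1591 and 2417 CPM in siCtl cells of PyMT-1099 LT. These 2 keratins averaged 1421 and 1311 CPM in those of Py2T LT, and 822 and 222 CPM in those of MT∆Ecad. Cdh1, the gene of E-cadherin, averaged 0.477 CPM in siNrf2 and 0.393 CPM in siCtl cells of MT∆Ecad, against 49.7 CPM in siCtl cells of PyMT-1099 LT and 13.9 CPM in those of Py2T LT. The leukocyte markers Ptprc and Adgre1 reached at most 0.057 and 0.034 CPM in any library, and Cd3e was at 0.

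The promoters of the genes were read first, because antioxidant response elements are the DNA sites through which NRF2 is known to act. A window of 300 bases (250 before and 50 after a start site) was available from RefSeq for 9 of the 10 genes on GRCm38.p6, with 3 alternative starts for Txnrd1. The core TGACNNNGC was searched on both strands. It lay in 3 of the 9 genes, Txnrd1, Srxn1 and Prdx1, which is 33.33%, against 1671 of 9925 tested genes with a window (16.84%) and 4071 of all 32851 windows (12.39%). The sites are shown with 30 bases each, on the strand of the gene and with the match in capitals, since they are the only matches among the members. In all 3 the core runs against the gene and is therefore read from its reverse complement, and at Prdx1 the match also holds the AP-1 word TGACTCA.
Txnrd1, chr10:82859104-82859133: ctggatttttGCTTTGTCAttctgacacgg
Srxn1, chr2:152105542-152105571: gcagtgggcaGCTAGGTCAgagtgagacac
Prdx1, chr4:116685456-116685485: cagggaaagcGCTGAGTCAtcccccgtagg
The match of Txnrd1 lies 92 bases upstream of 1 of its 3 starts, that of Prdx1 133 bases upstream of its start and that of Srxn1 28 bases downstream of its start. A match describes these letters and not binding. No match was found in the windows of Txn1, Txn2, Txnrd2, Prdx3, Prdx5 and Cat, and Prdx6 had no window.

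Averaged over the 3 lines with equal weight, siNrf2 lowered 6 of the 10 genes and raised 1. The falls were those of thioredoxin reductase Txnrd1, sulfiredoxin Srxn1, peroxiredoxins Prdx6 and Prdx1, thioredoxin Txn1 and catalase, and the rise was that of Prdx5. The mitochondrial genes Txn2, Txnrd2 and Prdx3 did not pass the test. A call means a Benjamini-Hochberg adjusted p below 0.05 over all tested genes in limma, fitted to log2(CPM + 1), and all fold changes are on that scale. Of all tested genes, 6.26% were called lower and 5.99% higher in this comparison. The median log2 fold change of the 10 genes was −0.21, against −0.01 for all tested genes. CPM are shares of the RNA of a culture, so fewer cells of a type and less RNA per cell cannot be told apart.

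The lines were not alike. In MT∆Ecad 6 genes were called lower and 0 higher, with 8.42% of all tested genes lower and 8.89% higher. Their median log2 fold change there was −0.31, against 0.00 for all tested genes. Neither for Py2T LT nor for PyMT-1099 LT did limma call a member (0 of 10 in each), where it called 0.152% and 0.52% of all tested genes in either direction. At an unadjusted limma p below 0.05 there was 1 lower gene (Cat) and 1 higher gene (Prdx5) in each of these lines. Of all 12502 tested genes, 1280 reached that level for PyMT-1099 LT, whereas 674 did so for Py2T LT, counting both directions. After adjustment, edgeR and DESeq2 also called 0 of the 10 genes in each. A fit that keeps the replicate number of each line as a block, called the blocked fit, called 3 lower and 1 higher in PyMT-1099 LT (3.95% and 5.05% of all genes), 0 lower and 1 higher in Py2T LT (0.672% and 0.344%) and 7 lower and 1 higher in MT∆Ecad (21.2% and 21.4%). Both siNrf2 libraries lay below both siCtl libraries for 7 of the genes in MT∆Ecad (32.8% of all tested genes), for 4 with PyMT-1099 LT (17.1%) and for 3 with Py2T LT (15.9%). They lay above both for 2 (32.5%) in MT∆Ecad, for 1 (20%) with PyMT-1099 LT and for 1 (7.63%) with Py2T LT.

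**Figure D1:**
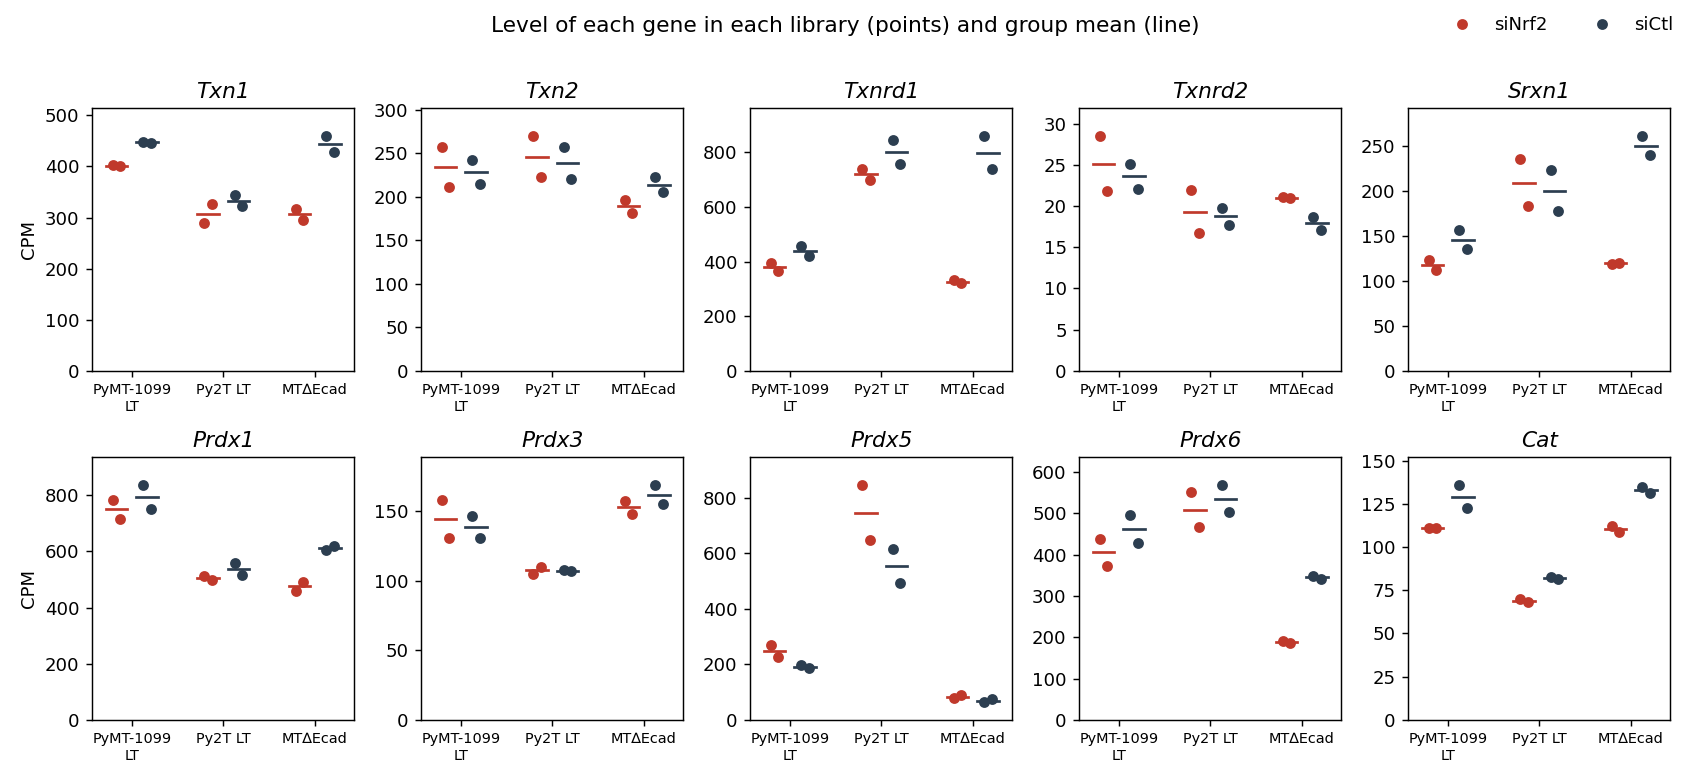
CPM of the 10 genes in each of the 12 libraries, with points for libraries and horizontal lines for group means of 2 replicates, siNrf2 left of siCtl in each line. The widest gaps between siNrf2 and siCtl points are those of Txnrd1, Srxn1 and Prdx6 in MT∆Ecad, and Prdx5 lies higher in siNrf2 than in siCtl libraries of each line.

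Txnrd1, the cytosolic thioredoxin reductase (Entrez 50493, GRCm38 chromosome 10, 82833951 to 82897724), had 332 and 321 CPM in siNrf2 cells of MT∆Ecad, against 859 and 738 CPM in siCtl cells. It had 396 and 365 CPM in siNrf2 against 457 and 421 CPM in siCtl cells of PyMT-1099 LT, and 741 and 697 against 846 and 759 CPM in Py2T LT. Both siNrf2 libraries lay below both siCtl libraries in each line, with the widest gap in MT∆Ecad, where the siNrf2 level was 41% of the siCtl level. Only Txnrd1 and Cat were so ordered in all 3 lines, as were 4.15% of all tested genes. The average log2 fold change was −0.55 (SE 0.06, limma adjusted p 0.00157). In MT∆Ecad alone it was −1.28 (adjusted p 0.000237). It was −0.21 in PyMT-1099 LT (0.534), and Py2T LT had −0.16 (1).

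Txnrd1 was the single member whose response differed between lines in limma's F test (adjusted p 0.00932), a test that 2.18% of all tested genes passed. The log2 effect in MT∆Ecad minus that in PyMT-1099 LT was −1.08 (95% interval −1.39 to −0.77, adjusted p 0.00901). MT∆Ecad minus Py2T LT was −1.13 (−1.44 to −0.82, adjusted p 0.0066). Py2T LT minus PyMT-1099 LT came to 0.05 (−0.26 to 0.36). The F test lost this call without MT∆Ecad siCtl replicate 1 or without MT∆Ecad siNrf2 replicate 2, and kept it when any of the 10 other libraries was left out. In the same fit the effect in MT∆Ecad was called lower than that in PyMT-1099 LT for 1 of the 10 genes (0.648% of all tested genes) and lower than that in Py2T LT for 3 (0.96%). The blocked fit called 5 (7.43%) and 5 (9.49%), in both cases Txnrd1, Srxn1, Prdx6, Txn1 and Prdx1. In the blocked fit 5 members passed the F test, Txnrd1 (0.00117), Srxn1 (0.00137), Prdx6 (0.00153), Prdx1 (0.0269) and Txn1 (0.0309), where 19% of all tested genes did.

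Srxn1, which encodes sulfiredoxin (Entrez 76650, chromosome 2, 152105524 to 152111376), had 119 and 120.1 CPM in siNrf2 cells of MT∆Ecad, against 261 and 240.4 CPM in siCtl cells. The siNrf2 level was 48% of the siCtl level, and the groups did not overlap. In PyMT-1099 LT it had 123 and 112 CPM in siNrf2 against 157 and 135 CPM in siCtl cells. In Py2T LT it had 235 and 183 CPM in siNrf2 against 223 and 177 CPM in siCtl cells, with overlapping groups. Its average log2 fold change was −0.44 (SE 0.08, limma adjusted p 0.0141) and that in MT∆Ecad −1.06 (0.00223). In PyMT-1099 LT the log2 fold change was −0.31 (adjusted p 0.536, blocked fit 0.0192), and in Py2T LT 0.06 (1). The effect in MT∆Ecad lay below that in Py2T LT by a log2 difference of −1.12 (adjusted p 0.0264). Its difference from PyMT-1099 LT was −0.75 (adjusted p 0.127, blocked fit 0.00245).

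Prdx6, a peroxiredoxin with a single catalytic cysteine that also acts on phospholipids (Entrez 11758, chromosome 1, 161240112 to 161251210), had 190.3 and 186 CPM in siNrf2 cells of MT∆Ecad, against 349 and 341 CPM in siCtl cells. These groups were far apart, and the siNrf2 level was 54.6% of the siCtl level. In PyMT-1099 LT it had 439 and 373 CPM in siNrf2 against 497 and 429 CPM in siCtl cells, and in Py2T LT 552 and 466 against 568 and 504 CPM, with overlap in both lines. The average log2 fold change was −0.38 (SE 0.07, limma adjusted p 0.0108). It was −0.87 in MT∆Ecad (0.00202), against −0.08 in Py2T LT and −0.19 in PyMT-1099 LT (0.695, blocked fit 0.0386). The effect in MT∆Ecad was below that in Py2T LT by −0.80 (adjusted p 0.0377) and differed from that in PyMT-1099 LT by −0.68 (0.0884, blocked fit 0.00187). Prdx6b, a second Prdx6-like gene of the table, had 0.378 to 1.47 CPM, and whether the counting split reads between such copies is not given in the sources used here.

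Txn1, the cytosolic thioredoxin (Entrez 22166, chromosome 4, 57943373 to 57956411), had 317 and 296 CPM in siNrf2 against 459 and 429 CPM in siCtl cells of MT∆Ecad. It had 403 and 400.4 CPM in siNrf2 against 448 and 446 CPM in siCtl cells of PyMT-1099 LT. In Py2T LT it had 288 and 327 against 343 and 322 CPM. The groups overlapped in Py2T LT and were apart in the other lines. The average log2 fold change was −0.27 (SE 0.05, limma adjusted p 0.0104) and that in MT∆Ecad −0.53 (0.00374).

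Prdx1, an abundant cytosolic peroxiredoxin that relies on thioredoxin (Entrez 18477, chromosome 4, 116685599 to 116700000), had 461 and 492 CPM in siNrf2 cells of MT∆Ecad, against 604 and 620.0 CPM in siCtl cells. In PyMT-1099 LT it had 782 and 717 against 835 and 751 CPM, and in Py2T LT 511 and 499.8 against 558 and 516 CPM. The groups overlapped in PyMT-1099 LT and were apart in the other lines. The average log2 fold change was small, −0.18 (SE 0.05, limma adjusted p 0.0466), and it lost its call when any of the 12 libraries was left out, at a pseudocount of 0.1, without the filter on low values, with TMM scaling and by edgeR and DESeq2. The fold change in MT∆Ecad was −0.36 (0.019), and that call was lost by edgeR, in a fit of the 4 MT∆Ecad libraries alone and without any 1 of these 4.

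Cat, the gene of catalase (Entrez 12359, chromosome 2, 103453904 to 103485153), had 112 and 109 CPM in siNrf2 against 135 and 131 CPM in siCtl cells of MT∆Ecad. It had 111 and 111 against 136 and 123 CPM in PyMT-1099 LT, and 70.0 and 68.0 against 83.0 and 81.8 CPM in Py2T LT. Every siNrf2 library lay below both siCtl libraries of its line. The change was small and of similar size in the lines: −0.27 in MT∆Ecad (limma adjusted p 0.039), −0.25 in Py2T LT (0.511) and −0.22 in PyMT-1099 LT (0.339, blocked fit 0.0495). The average was −0.25 (SE 0.04, adjusted p 0.0101). The difference between lines did not pass (F test adjusted p 0.997), and the 95% interval for MT∆Ecad minus Py2T LT was −0.25 to 0.23. The call in MT∆Ecad survived 4 of the 12 omissions of a single library (both PyMT-1099 LT siCtl and both Py2T LT siNrf2 replicates) and was lost with TMM scaling and by edgeR and DESeq2.

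Prdx5, a peroxiredoxin of mitochondria, peroxisomes and cytosol (Entrez 54683, chromosome 19, 6906697 to 6910106), was the single gene that rose. It had 269 and 227 CPM in siNrf2 against 196 and 185 CPM in siCtl cells of PyMT-1099 LT. It had 845 and 649 against 616 and 493 CPM in Py2T LT, and 76.8 and 89.6 against 63.8 and 74.3 CPM in MT∆Ecad. Both siNrf2 libraries lay above both siCtl libraries in each line, as they did for 2.39% of all tested genes. The average log2 fold change was 0.35 (SE 0.09, limma adjusted p 0.0411). This call survived 2 of the 12 omissions of a single library (Py2T LT siCtl replicate 1 and Py2T LT siNrf2 replicate 2) and was lost with TMM scaling, without the filter on low values and by edgeR, though not by DESeq2. By line the change was 0.43 in Py2T LT (0.782, blocked fit 0.022), 0.37 in PyMT-1099 LT (0.482, blocked fit 0.0134) and 0.27 in MT∆Ecad (0.318, blocked fit 0.00634). Prdx5 shares 409 exon bases (19.1%) with Trmt112 on the opposite strand. Trmt112 had 8.33 to 24.0 CPM and an average log2 fold change of −0.07 (limma adjusted p 0.748). Whether the counting used the strand is not given in the sources used here.

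The remaining mitochondrial genes were not called by limma on average or in any line. Txn2, mitochondrial thioredoxin (Entrez 56551, chromosome 15), had 197 and 181 CPM in siNrf2 against 223 and 205 CPM in siCtl cells of MT∆Ecad, without overlap. Over all groups of 3 lines it ranged only 1.30-fold between the highest and the lowest group mean. Its average log2 fold change was −0.04 (limma adjusted p 0.81), and that in MT∆Ecad −0.18 (0.434, blocked fit 0.0194). Prdx3, a mitochondrial peroxiredoxin (Entrez 11757, chromosome 19), had 157 and 148 CPM in siNrf2 against 168 and 155 CPM in siCtl cells of MT∆Ecad, and its average change was −0.01 (0.943). Txnrd2, mitochondrial thioredoxin reductase (Entrez 26462, chromosome 16), had 21.03 and 20.97 CPM in siNrf2 against 18.7 and 17.1 CPM in siCtl cells of MT∆Ecad, without overlap. Its average change was 0.11 (limma adjusted p 0.485), and that in MT∆Ecad 0.22 (0.405, blocked fit 0.0754).

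**Figure D2:**
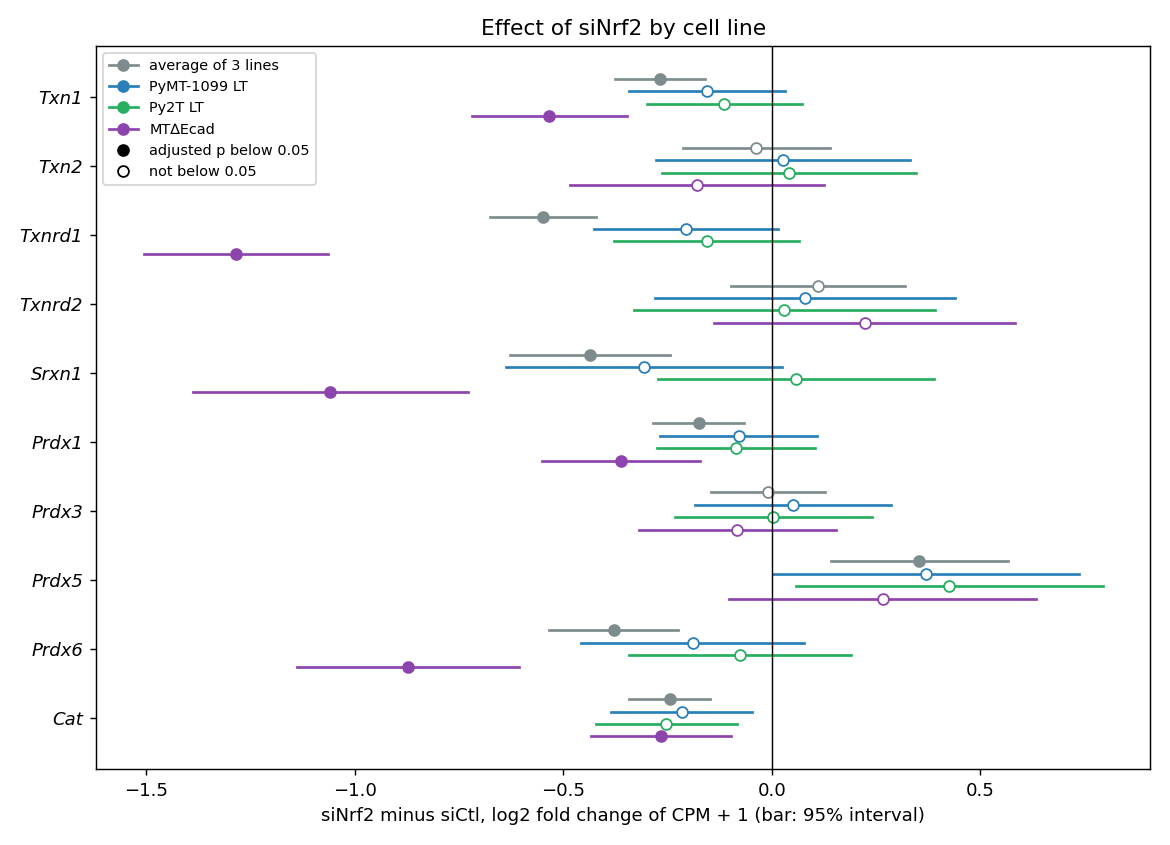
Log2 fold change, siNrf2 minus siCtl, on the log2(CPM + 1) scale for each of the 10 genes on average and in each line, with 95% intervals from limma and filled points where the adjusted p is below 0.05. Txnrd1, Srxn1 and Prdx6 lie lowest in MT∆Ecad (−1.28, −1.06 and −0.87), and Prdx5 lies above 0 in all 3 lines.

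The cytosolic and mitochondrial partners were then set against each other within each library, as the log2 ratio of CPM + 1. The log2 ratio of Txnrd1 to Txnrd2 was 3.92 and 3.87 in siNrf2 cells of MT∆Ecad, against 5.45 and 5.35 in siCtl cells. In PyMT-1099 LT it was 3.75 and 4.003 against 4.13 and 4.19, and in Py2T LT 5.02 and 5.30 against 5.35 and 5.35. The siNrf2 ratio was the lower in each line, and over the 3 lines it differed by −0.66. An exact two-sided permutation test within lines gave p = 0.00926, the smallest that free shuffling within lines allows, and 0.0277 after adjustment over 3 ratios. For all 3 ratios this shuffling ignored the replicate numbers, which the blocked fit keeps together. A permutation test that keeps them together was not run, so these p-values do not take the pairing into account. The log2 ratio of Prdx1 to Prdx3 differed by −0.17 (exact permutation p 0.0185, adjusted 0.0277). It was 1.54 and 1.73 in siNrf2 cells of MT∆Ecad, against 1.84 and 1.99 in siCtl cells. The log2 ratio of Txn1 to Txn2 differed by −0.23 and did not pass (exact permutation p 0.0648, adjusted 0.0648), although it was lower in MT∆Ecad, with 0.69 and 0.70 in siNrf2 against 1.04 and 1.06 in siCtl cells. These are ratios, and a lower ratio shows that the genes changed unequally.

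**Figure D3:**
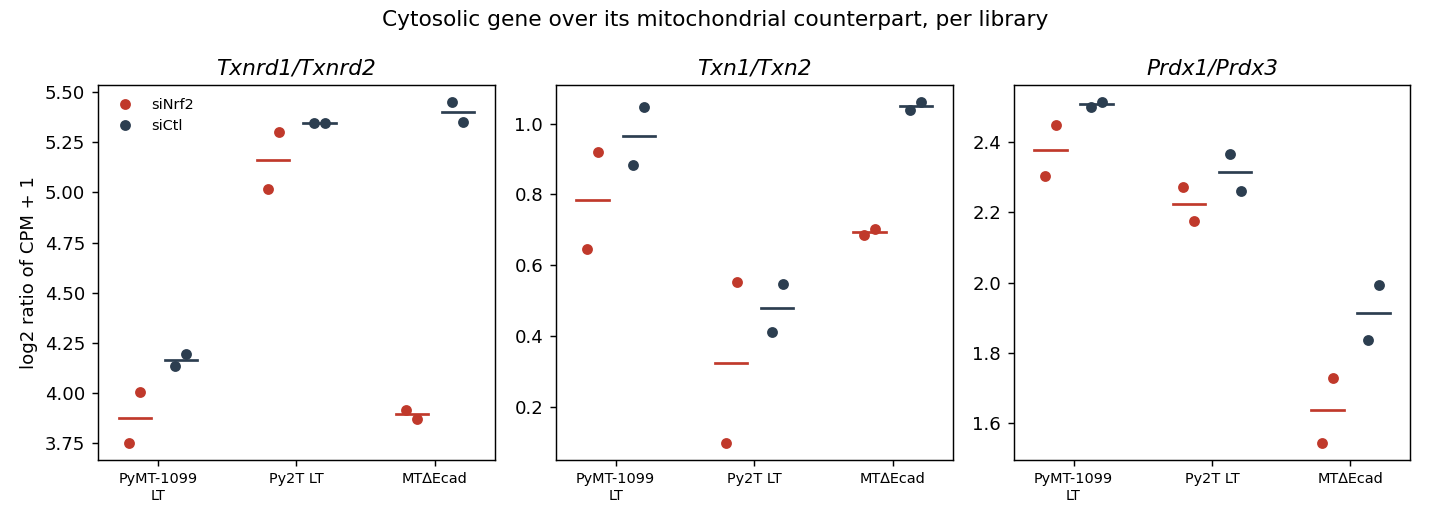
Log2 ratio of CPM + 1 of the cytosolic to the mitochondrial gene in each library (points) with group means (lines), for Txnrd1/Txnrd2, Txn1/Txn2 and Prdx1/Prdx3, siNrf2 left of siCtl in each line. The Txnrd1/Txnrd2 ratio in MT∆Ecad is 3.92 and 3.87 in siNrf2 and 5.45 and 5.35 in siCtl libraries.

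Summed over the 10 genes, MT∆Ecad had 1982 and 1964 CPM in siNrf2 cells, against 3139 and 2952 CPM in siCtl cells. The sums were 2966 and 2669 CPM in siNrf2 against 3140.4 and 2858 CPM in siCtl cells of PyMT-1099 LT, and 3639.8 and 3239.5 against 3622 and 3197 CPM in Py2T LT. The groups were apart in MT∆Ecad and overlapped in the other lines. The summed mesenchymal markers were higher in siNrf2 than in siCtl libraries of every line, without overlap. They came to 14792 to 15585 CPM in siNrf2 and 10652 to 11148 CPM in siCtl libraries of MT∆Ecad, with all 7 markers above 0. They came to 9922 to 10391 against 9230 to 9459 CPM in PyMT-1099 LT, and to 11549 to 11881 against 10626 to 11451 CPM in Py2T LT. Fn1 made up most of the difference in MT∆Ecad, with a mean of 9247 CPM in siNrf2 and 5469 CPM in siCtl cells, whereas Zeb2 averaged 41.3 CPM in siNrf2 and 58.5 CPM in siCtl cells. Single markers also went both ways in the other lines. In Py2T LT Vim, Cdh2, Zeb1 and Zeb2 averaged lower in siNrf2 than in siCtl cells. Fn1 (9887 against 9132 CPM), Twist1 and Snai1 averaged higher there. In PyMT-1099 LT Zeb1 and Zeb2 averaged lower, and Vim, Fn1, Cdh2 and Snai1 higher. The summed epithelial markers came to 1235 to 1245 CPM in siNrf2 and 983 to 1107 CPM in siCtl libraries of MT∆Ecad. Krt8 (mean 942 against 822 CPM) and Krt18 (298 against 222 CPM) made up nearly all of it. Cldn4 and Esrp1 were at 0 there and Cdh1 under 1 CPM. The sums of the other lines follow. They came to 4533 to 5403 against 3764 to 4365 CPM in PyMT-1099 LT, and overlapped in Py2T LT at 2949 to 3812 against 2672 to 3191 CPM. Their part in the changes of the 10 genes was not tested.

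Without knockdown, the lines differed in these genes about as often as in all genes. Between siCtl cells of MT∆Ecad and PyMT-1099 LT 5 of 10 genes were called by limma (57.6% of all tested genes), between MT∆Ecad and Py2T LT 5 (54.4%), and between Py2T LT and PyMT-1099 LT 7 (55.6%). These comparisons share their siCtl libraries. Prdx5 set the lines furthest apart: its siCtl level in MT∆Ecad was lower than in Py2T LT by a log2 difference of −2.98 (limma adjusted p 2.49e-07) and lower than in PyMT-1099 LT by −1.46 (4.04e-05). Its group means spanned 10.8-fold, from Py2T LT siNrf2, Py2T LT siCtl, PyMT-1099 LT siNrf2, PyMT-1099 LT siCtl and MT∆Ecad siNrf2 down to MT∆Ecad siCtl, and no neighbours in that order overlapped. Txnrd1 was higher in siCtl cells of MT∆Ecad than in those of PyMT-1099 LT by 0.86 (limma adjusted p 4.71e-05), and its difference from Py2T LT was −0.01 (0.953), with a direction that edgeR and DESeq2 turned. After siNrf2, MT∆Ecad held the lowest Txnrd1 level of the 6 groups, 326 ± 7.67 CPM (SD, n = 2), below the 380 ± 21.8 CPM of PyMT-1099 LT siNrf2 cells, without overlap. Srxn1 was also higher in siCtl cells of MT∆Ecad than in those of PyMT-1099 LT (0.78, adjusted p 0.00136), while its siNrf2 groups in these lines overlapped at 120 ± 0.631 and 118 ± 8.09 CPM (SD, n = 2 each). Prdx6 was lower in siCtl cells of MT∆Ecad than in those of PyMT-1099 LT (−0.42, 0.013) and Py2T LT (−0.63, 0.00148), and the call against PyMT-1099 LT was lost without PyMT-1099 LT siCtl replicate 1 or MT∆Ecad siCtl replicate 2. Cat was higher in MT∆Ecad than in Py2T LT (0.68, 4.03e-05).

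Levels were also divided by exon length in kilobases, taken over all annotated transcripts of a gene together. By this scale Txn1 stood highest in 5 of the 6 groups. In MT∆Ecad it had 292 CPM per kb in siNrf2 and 422 CPM per kb in siCtl cells. Prdx5 stood above it in siNrf2 cells of Py2T LT, at 349 against 293 CPM per kb. Txnrd2 was the lowest gene in every group, at 4.06 to 5.71 CPM per kb. Txnrd1 had 46.0 CPM per kb in siNrf2 and 113 CPM per kb in siCtl cells of MT∆Ecad. The lengths of the expressed transcripts were not measured, and the order between genes depends on the length used. In siCtl cells of PyMT-1099 LT, Prdx1 had more CPM than Txn1 (793 against 447). Its exon length was 3043 bases, against 1051 for Txn1.

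The genes whose profiles over the 12 libraries lay nearest to that of Txnrd1, by the root mean square difference of centred log2(CPM + 1) values among 10278 candidates, were Shmt1, a serine hydroxymethyltransferase (0.13), Slc29a2, a nucleoside transporter (0.16) and Nle1 (0.19). Shmt1 had log2 fold changes of −0.94 in MT∆Ecad, −0.12 in Py2T LT and −0.38 in PyMT-1099 LT. The nearest to Srxn1 were Mcm5, a subunit of the replicative helicase (0.09), Rcc2 (0.14) and Ung, a uracil-DNA glycosylase (0.17). Mcm5 had −0.86 in MT∆Ecad, −0.08 in Py2T LT and −0.31 in PyMT-1099 LT. These are descriptions over libraries that share lines and treatment.

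Around the 10 genes, 31 further genes of thioredoxin-linked redox chemistry were read, and all were tested. On average over the lines, limma called 3 lower and 4 higher, where 6.26% and 5.99% of all tested genes were, and the blocked fit called 7 and 7 (21% and 19%). Their median log2 fold change was −0.01, as for all tested genes. Txnip, whose product binds reduced thioredoxin and blocks it, had 30.8 and 56.7 CPM in siNrf2 cells of MT∆Ecad, lowest first, against 6.67 and 7.86 CPM in siCtl cells. It averaged 80.3 ± 4.11 CPM in siNrf2 against 39.2 ± 10.4 CPM in siCtl cells of PyMT-1099 LT and 36.6 ± 7.96 against 22.0 ± 5.26 CPM in Py2T LT (SD, n = 2 each). The groups were apart in all 3 lines, and the average log2 fold change was 1.38 (SE 0.17, limma adjusted p 0.00288). The sestrins Sesn2 and Sesn3, stress-induced regulators of growth signalling, rose by 0.49 (0.0127) and 0.48 (0.0103). The response of Sesn3 differed between lines (limma F test adjusted p 0.0389), with 35.6 ± 5.38 CPM in siNrf2 against 14.8 ± 1.98 CPM in siCtl cells of MT∆Ecad (SD, n = 2 each).

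Methionine sulfoxide reductases, which repair oxidized methionine with the help of thioredoxin, went both ways. Msrb1 rose by 0.33 (limma adjusted p 0.0158) and Msra fell by 0.24 (0.0321) on the log2 scale, at 3.15 to 6.24 CPM over all libraries. Ribonucleotide reductase, an enzyme that thioredoxin can reduce and that makes deoxyribonucleotides, had lower RNA of its subunits Rrm1 (−0.26, adjusted p 0.00696) and Rrm2 (−0.36, 0.0292). Rrm2 had 133 and 159 CPM in siNrf2 against 245 and 288 CPM in siCtl cells of MT∆Ecad, lowest first. Superoxide dismutases Sod1 (−0.15, 0.0884, blocked fit 0.005) and Sod2 (−0.16, 0.0538, blocked fit 0.0117) were called lower only in the blocked fit. Sod3, the extracellular dismutase, went the other way (0.16, 0.222, blocked fit 0.0376), and in MT∆Ecad it rose by 0.60 (limma adjusted p 0.0164), with 142 ± 0.556 CPM in siNrf2 against 94.2 ± 10.5 CPM in siCtl cells (SD, n = 2 each). Its mean was 165 CPM in siNrf2 against 145 CPM in siCtl cells of PyMT-1099 LT. In Py2T LT Sod3 was very low and averaged lower after siNrf2, at 0.294 against 0.594 CPM. The peroxiredoxins outside the 10 genes, Prdx2 (0.03) and Prdx4 (−0.05), did not pass.

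**Figure D4:**
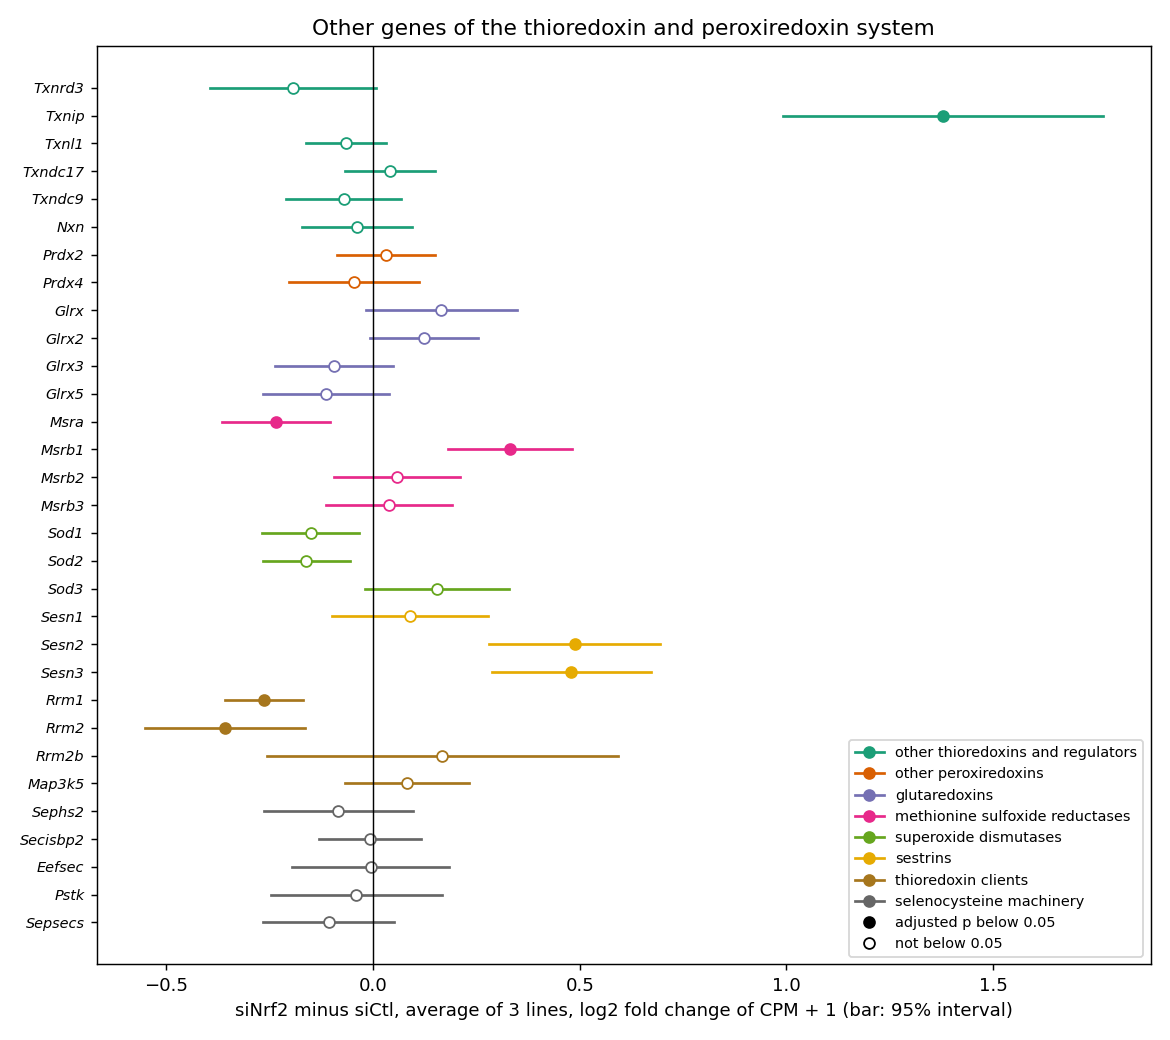
Average log2 fold change, siNrf2 minus siCtl, of the 31 further redox genes by role, with 95% intervals from limma and filled points where the adjusted p is below 0.05. Txnip stands highest at 1.38, with Sesn2 (0.49), Sesn3 (0.48) and Msrb1 (0.33) above 0 and Rrm2 (−0.36), Rrm1 (−0.26) and Msra (−0.24) below.

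An siRNA can lower unintended mRNAs through short matches in their 3′ UTRs. The words ACCATTT and GAGAAGT were looked for, chosen with earlier results of these data known. Of the 10 genes, Prdx1 and Txn2 hold ACCATTT in a 3′ UTR, and none holds GAGAAGT. The 1910 tested genes with ACCATTT had a median average log2 fold change of −0.06, against 0.00 for 10034 genes without it. For GAGAAGT the median was −0.038 in 1903 genes with the word and −0.002 in 10041 without. Because the words were chosen with results known, these medians are no test of such matches. The siRNA sequences were not used here, and the part of such matches in the small fall of Prdx1 was not tested. Txnrd1, Srxn1, Prdx6, Txn1, Cat and Prdx5 hold neither word, and other words were not searched.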

How the data were processed

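Ribosomal RNA was removed from total RNA and stranded libraries were sequenced as single reads, per the labels' protocols. The submitters' processing notes name STAR and mm10. The counting tool, its annotation and its use of strand are not given in the sources used here. The authors deposited CPM for 24454 Entrez IDs in 12 libraries; 24374 were matched to RefSeq symbols (GRCm38.p6), 7 through GENCODE and 73 not at all. The CPM steps gave whole reads for 100.0% of values within 0.01 of a read.

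On the log2(CPM + 1) scale, limma 3.58.1 (R 4.3.3) tested genes that reached a CPM of 1 in 2 or more libraries, modelling 6 group means with a mean trend and 6 residual degrees of freedom. Two-sided p-values were adjusted by Benjamini-Hochberg over all 12502 tested genes. On average over the lines limma called 1532 genes, edgeR 4.0.16 on the recovered reads 856 and DESeq2 1.42.0 on them 1264. The other alternatives were pseudocounts of 0.1 and 5, other filters, TMM scaling, each line alone and each library left out. Deviations of same-numbered siNrf2 and siCtl libraries correlated across genes (r = 0.625 for MT∆Ecad, 0.778 for PyMT-1099 LT and 0.846 for Py2T LT), so the numbers were taken to pair them. The blocked fit has 3 residual degrees of freedom. The scripts were tested on simulated data, read for the average over the lines only. The simulated libraries had no pairing by number and the same effect in every line.

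The 10 genes and the related and marker lists were chosen with earlier results of these data known. Beside the 10 genes and Nfe2l2, the text names the related genes called on average and the 3 genes of smallest profile difference (mean CPM of at least 5) to Txnrd1 and to Srxn1; other related genes and Trmt112 and Prdx6b were named after their values were seen.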

Additional observations from a re-analysis of the deposited data

Results flagged for a closer look

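The siNrf2 effect on Txnrd1 stood out because it differed between the lines in a test of the difference itself (limma F test adjusted p 0.00932, blocked fit 0.00117). The log2 fold change was −1.28 in MT∆Ecad, −0.16 in Py2T LT and −0.21 in PyMT-1099 LT. The siNrf2 libraries lay below the siCtl libraries in all 3 lines.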

How the results depend on the processing

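The average falls of Txn1, Txnrd1, Srxn1, Prdx6 and Cat passed in all 12 fits with a library left out and all 8 other alternatives. The count of genes raised on average (1) became 0 without the filter on low values, with TMM scaling and by edgeR, and 0 to 1 with a library left out. The count of genes whose effect differed between lines (1) became 2 at pseudocount 5, 3 by DESeq2, 5 with the replicate block and 0 to 2 with a library left out (2 without Py2T LT siNrf2 replicate 2). The replicate block moved PyMT-1099 LT to 3 lower and 1 higher, Py2T LT to 1 higher, MT∆Ecad to 1 higher, siCtl MT∆Ecad against siCtl Py2T LT to 5 higher (3 without it), and the related genes to 7 lower (3) and 7 higher (4). It also called siCtl differences of Txnrd2 and Prdx3 (MT∆Ecad minus PyMT-1099 LT), Txn2, Srxn1 and Prdx1 (MT∆Ecad minus Py2T LT), and Txnrd2 and Prdx6 (Py2T LT minus PyMT-1099 LT), and beside these and the calls given with each gene it changed no other call of the 10 genes. In these siCtl comparisons, in this order, the blocked fit called 7, 8 and 9 of the 10 genes in either direction. It called 9325, 9050 and 9328 of all 12502 tested genes. With a library left out, related genes lowered on average numbered 1 to 4 (3 with all libraries, and 1 without PyMT-1099 LT siCtl replicate 1 or siNrf2 replicate 2, Py2T LT siCtl or siNrf2 replicate 1, or MT∆Ecad siCtl replicate 1 or siNrf2 replicate 2), and the Txn1 to Txn2 ratio lay between −0.31 and −0.16, passing without PyMT-1099 LT siNrf2 replicate 2 or Py2T LT siNrf2 replicate 2.

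Reversals touched uncalled changes near 0. The average change of Prdx3 was 0.0034 with TMM, 0.0065 by edgeR and 0.0158 by DESeq2. Between siCtl cells, Txn1 (MT∆Ecad minus PyMT-1099 LT) was 0.0281, 0.0249 and 0.0385 by the same, and Txnrd1 (MT∆Ecad minus Py2T LT) was 0.0020 by edgeR and 0.0095 by DESeq2. Left-out libraries gave average changes of −0.054 to 0.0357 for Prdx3 and −0.084 to 0.0105 for Txn2. In PyMT-1099 LT they gave −0.11 to 0.17 for Txn2, −0.10 to 0.26 for Txnrd2 and −0.0834 to 0.186 for Prdx3. In Py2T LT they gave −0.0962 to 0.18 for Txn2, −0.16 to 0.22 for Txnrd2, −0.12 to 0.24 for Srxn1, −0.0278 to 0.0362 for Prdx3 and −0.20 to 0.0457 for Prdx6. Between siCtl cells they gave −0.0592 to 0.0365 for Txn1 and −0.0303 to 0.11 for Cat (MT∆Ecad minus PyMT-1099 LT), −0.12 to 0.10 for Txnrd1 and −0.14 to 0.0147 for Txnrd2 (MT∆Ecad minus Py2T LT), and −0.054 to 0.17 for Txn2 (Py2T LT minus PyMT-1099 LT). The causes were not tested. With 2 libraries per group, effects of a single line rest on few values, and counting error is small at these depths.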
